A study of Rattus norvegicus with 17 samples.

Results

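The genes described here encode chemokines, interleukins and the receptors that bind them. They were taken as every probe whose symbol on the platform began with Ccl, Cxcl, Ccr or Cxcr and a digit, or with Il and a digit, in upper or lower case, and where a gene had several probes the one with the highest mean level stood for it. The rule found 104 probes of 22226, for 102 genes of the 13278 symbols on the array. Of these genes 27 encode chemokines, 14 chemokine receptors, 27 interleukins, 31 interleukin receptor chains, and 3 (Il1rn, Il18bp and Il22ra2) secreted inhibitors.

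Expression was measured on Illumina RatRef-12 bead arrays in adipose tissue and liver of male rats of 7 months, in order to compare a diabetic with a normoglycaemic strain. The groups were GK adipose tissue (4 arrays), BN adipose tissue (5 arrays), GK liver (3 arrays) and BN liver (5 arrays). GK (Goto-Kakizaki) rats are lean, were bred for poor glucose tolerance and become hyperglycaemic spontaneously, whereas BN (Brown-Norway) rats are a normoglycaemic inbred strain. All rats came from colonies kept in Oxford, on standard chow and a fixed light and dark cycle, with no treatment stated. The 17 arrays came from 9 rats, since both tissues were hybridised from 5 BN rats and 3 of the 4 GK rats. The 2 strains differ across the whole genome, and the probes were designed on the rat reference. Within a tissue, a sequence difference beneath a probe and a difference in transcript level therefore cannot be told apart. For Il33 and Cxcl13, described below for liver, the same probes were bright in adipose tissue of both strains. Il33 lay between 10.03 and 10.48 in GK and between 10.06 and 10.94 in BN adipose tissue. Cxcl13 lay between 11.07 and 11.79 in GK and between 10.27 and 11.35 in BN adipose tissue. The sequence beneath the probes was not tested.

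Chemokines are small secreted proteins that draw leukocytes along a gradient by binding G protein-coupled receptors of the Ccr and Cxcr families. Interleukins act between leukocytes, and between leukocytes and tissue cells, mostly through receptors of shared and private chains that signal by JAK and STAT proteins or, for the interleukin 1 family, by MyD88 and NF-kB. In adipose tissue they are best known from the macrophages and lymphocytes that accumulate there in obesity, and in liver from the acute phase response that hepatocytes mount to interleukin 1 and interleukin 6.

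A level is given below on the log2 scale after a variance stabilising normalisation (vsn) of all arrays together, so that a difference of 1 is a doubling for bright probes. A fold given as at least is a bound on this scale, and need not hold under another normalisation. A probe was taken as above background where the scanner's detection score against negative control probes was over 0.99. The number of probes above background lay between 7315 and 9747 per array, and the mean signal of the negative controls between 102.1 and 153.9. The array labelled GK liver replicate 2 stood apart from the other liver arrays. A list of 11 kidney genes averaged 12.06 on it, against 3.97 to 4.81 on the other 7 liver arrays, and 9 hepatocyte genes averaged 8.43, against 14.14 to 15.08. Liver counts are therefore given with and without it. Among adipose arrays, 11 skeletal muscle genes averaged 10.43 in GK replicate 2, against 3.83 to 8.03 on the other adipose arrays and 3.68 to 4.02 in liver. The 9 hepatocyte genes averaged 6.06 in GK replicate 1, against 3.67 to 4.68 on the other adipose arrays. Counts led with for adipose tissue were therefore repeated without GK adipose replicates 1 and 2. Muscle markers also exceeded the liver level on other adipose arrays of both strains, so leaving out these arrays does not remove them.

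Of the 102 genes, 56 (54.9%) were above background on at least 1 array, a share close to that of all probes (53.1%). On every one of the 17 arrays only 13 (12.7%) were, against 25.2% of all probes. These were the chemokines Ccl5, Ccl6, Ccl27, Cxcl1, Cxcl9 and Cxcl12, the receptor Ccr7, the cytokines Il15 and Il33, the receptor chains Il10rb, Il11ra1 and Il17ra, and Il18bp, which captures interleukin 18. By family, 21 of 27 chemokines, 8 of 14 chemokine receptors, 11 of 27 interleukins, 14 of 31 interleukin receptor chains and 2 of 3 inhibitors passed on at least 1 array. The remaining 46 genes (45.1%) passed on none. They include the T cell cytokines Il2, Il4, Il5, Il9 and Il13, the macrophage products Il6, Il10, Il12a and Il23a, the neutrophil chemokines Cxcl2 and Cxcl3, and the receptor chains Il1r1, Il1rap, Il2rg and Il6st. Such a gene was not detectable with its probe, which does not show that it was absent. GK liver replicate 2 was the only array on which Ccl20, Ccl28, Ccr10 and Cxcl16 were above background.

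In adipose tissue, 3 of the 102 genes were higher in GK than in BN rats (Il1rl1, Cxcl1 and Ccl2) and 2 were lower (Il2ra and Cxcl16), at a limma p-value adjusted over all 22226 probes of less than 0.05. Over all probes, 1.03% were higher and 1.62% lower at the same threshold (2.65% in either direction), so that the share of these genes was slightly above the background upward and near it downward. At an unadjusted p under 0.05, 22 of the genes (21.6%) passed, against 14.7% of all probes. The higher calls made up 38.9% of the called probes with vsn, 55.0% with neqc and 51.8% with quantile normalisation. Here neqc estimates the background from the detection scores. Among the chemokine and interleukin genes neqc gave 5 higher and 0 lower, where 563 of all 22226 probes were higher and 460 lower. No GK value overlapped a BN value for 8 genes that lay higher and 5 that lay lower, where 3.71% and 4.50% of all probes did so. The median difference was 0.14 over the 102 genes and 0.02 over all probes. Without GK adipose replicates 1 and 2, 3 genes passed (Il1rl1, Cxcl1 and Cxcl16).

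Il1rl1, also called ST2, is the receptor of interleukin 33 and marks regulatory T cells, mast cells and type 2 innate lymphoid cells. Its level was 7.24, 6.99, 6.96 and 7.32 in GK adipose tissue, against 4.05, 3.97, 3.85, 3.71 and 4.41 in BN adipose tissue. The GK arrays lay close together and far above every BN array. The probe was above background on 4 of 4 GK arrays and on 0 of 5 BN arrays. Since no BN array was above background, only a lower bound of the fold on the vsn scale is given, at least 3.45-fold higher in GK. This bound takes each BN array at the probe's own level or at the lowest level above background, whichever is higher. The fitted difference was 3.13 ± 0.18 with vsn (SE, log2; adjusted p = 1.34e-05 by limma) and 0.32 with neqc (adjusted p = 9.31e-05 by limma), so its size depends on the normalisation of low signal. The neqc difference lay below the bound from vsn. On the vsn scale, 3 slides that held an array of each strain gave 3.19, 2.99 and 3.46.

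Cxcl1 encodes a chemokine that attracts neutrophils through Cxcr2. In adipose tissue it reached 8.44, 8.41, 8.52 and 8.89 in GK rats, against 6.68, 6.33, 6.35, 6.74 and 7.37 in BN rats. All GK values were above all BN values. The difference of 1.87 ± 0.24 (SE, log2) was 3.66-fold, with an adjusted p of 0.00217 by limma, and was 1.77, 2.20 and 2.55 within the 3 shared slides. With neqc it was 0.77 (adjusted p = 0.00208 by limma). The receptor Cxcr2 lay between 5.89 and 6.46 in GK and between 4.88 and 5.76 in BN adipose tissue. Its groups did not overlap either, but its difference of 0.71 did not pass (adjusted p = 0.145 by limma). Cxcl2 and Cxcl3, which bind the same receptor, were above background on no array.

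The Cxcl1 promoter is shown because Cxcl1 had the largest adipose strain difference among the chemokines above background on every array, and because chemokine promoters of this kind are classical targets of NF-kB. The sequence is RefSeq's for build GRCr8, from 250 bases before to 50 bases after the start, at chr14:17479272-17479571 on the minus strand, written 5′ to 3′, and capitals mark matches to the NF-kB consensus on either strand.
Cxcl1: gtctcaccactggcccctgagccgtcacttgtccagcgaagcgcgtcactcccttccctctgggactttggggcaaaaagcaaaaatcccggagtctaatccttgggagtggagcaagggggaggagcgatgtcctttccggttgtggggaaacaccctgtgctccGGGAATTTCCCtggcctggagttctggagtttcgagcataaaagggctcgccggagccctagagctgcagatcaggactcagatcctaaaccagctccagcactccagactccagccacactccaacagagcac
The capitals are a pair of overlapping matches at -84 to -75 and -83 to -74 from the start. A match to this consensus was found in 4.18% of the 33469 rat promoters of this length, and in 14 of the 78 chemokine and interleukin genes that had an entry (17.9%). A match is a description of the letters, and binding was not measured.

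Ccl2 (MCP-1), the main chemokine for monocytes, was at 7.79, 7.70, 7.31 and 7.91 in GK adipose tissue, against 6.81, 6.44, 6.65, 7.09 and 6.60 in BN adipose tissue. The groups did not overlap, and the lowest GK array was only slightly above the highest BN array. The difference was 0.96 ± 0.19 (SE, log2; 1.95-fold, adjusted p = 0.0283 by limma), with 0.99, 0.88 and 1.26 within slides. With neqc it was 0.27 (adjusted p = 0.00992 by limma). The call was lost in 7 of 9 fits that left out a single array (adjusted p from 0.0521 to 0.0968). Its receptor Ccr2 lay between 5.84 and 6.46 in GK and between 5.34 and 6.21 in BN adipose tissue, with overlap (difference 0.50, adjusted p = 0.331 by limma). The 15 genes of a macrophage list averaged 8.36 to 8.49 on GK and 8.35 to 8.98 on BN adipose arrays, with overlap, and 1 of them was higher and 1 lower in GK.

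**Figure D1:**
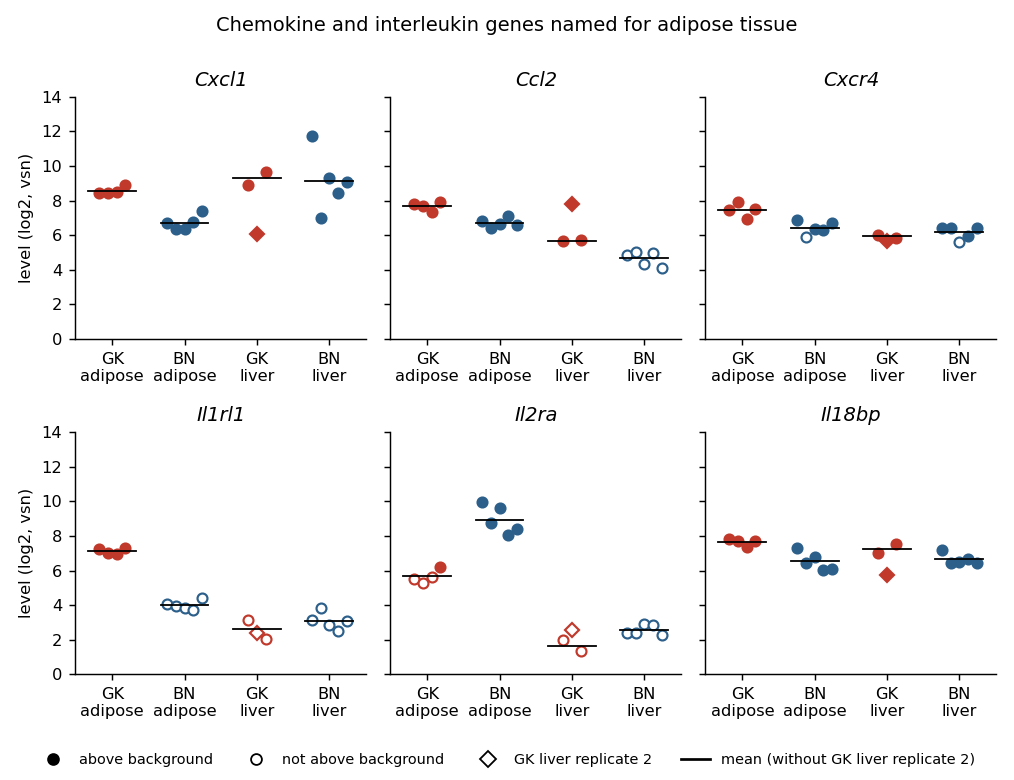
Levels (log2, vsn) of 6 chemokine and interleukin genes on each array, with GK and BN adipose tissue left of GK and BN liver; filled points were above background, open points were not, the diamond is GK liver replicate 2, and lines are group means without it. Il1rl1 lay between 6.96 and 7.32 in GK adipose tissue and between 3.71 and 4.41 in BN adipose tissue, whereas Il2ra lay between 5.29 and 6.23 in GK and between 8.06 and 9.96 in BN adipose tissue.

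Il2ra encodes CD25, the chain that gives the interleukin 2 receptor its high affinity and that regulatory and activated T cells carry. In adipose tissue its level was 5.53, 5.29, 5.62 and 6.23 in GK rats, against 9.96, 8.72, 9.61, 8.06 and 8.38 in BN rats. Every GK array lay well below every BN array, and the probe was above background on 1 of 4 GK and on 5 of 5 BN arrays. The difference was -3.28 ± 0.40 (SE, log2; adjusted p = 0.00178 by limma), with no fold given because only 1 GK array measured the gene, and was -4.43, -3.10 and -3.37 within slides. Without GK adipose replicates 1 and 2 the adjusted p was 0.0528, with a difference of -3.02, and with neqc it was 0.0838, with a difference of -1.29. A list of 16 T and NK cell markers had means of 5.33 to 6.61 on GK and 4.54 to 5.63 on BN arrays, with overlap, 15 of 16 differences above 0 and 0 of 16 past the threshold, and its part in the Il2ra result was not tested. The lists of B cell markers (3.98 to 4.27 in GK and 4.02 to 4.41 in BN adipose tissue), neutrophil and mast cell markers (5.80 to 6.05 and 5.85 to 6.35), endothelial markers (9.10 to 9.42 and 9.09 to 9.41) and adipocyte markers (12.39 to 12.57 and 12.52 to 12.86, GK and BN) overlapped between strains. Of the endothelial genes 1 was higher and 1 lower in GK adipose tissue. Of the 9 adipocyte genes 0 were higher and 1 lower, with 1 difference above 0 and a median of -0.26. No gene of the B cell or the neutrophil and mast cell list passed. In bulk tissue, fewer cells of a type and less RNA per cell cannot be told apart.

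Cxcl16, a membrane-bound chemokine and scavenger receptor of macrophages, passed the threshold in adipose tissue with a lower signal in GK, but was above background on no adipose array of either strain. Its level was 2.53, 2.04, 2.46 and 3.15 in GK, against 6.81, 6.19, 6.58, 7.65 and 7.91 in BN adipose tissue. These levels did not overlap (adjusted p = 0.000147 by limma). The raw signal was 95.4 to 111.9 on GK arrays and 147.8 to 301.2 on BN arrays. However, the detection score was at most 0.697 on the BN arrays, although 249 to 3293 dimmer probes on the same arrays were scored above background. Score and signal thus disagreed for this probe, and no size of the difference is given. With neqc the call was lost (adjusted p = 0.066 by limma).

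None of the 3 secreted inhibitors passed in adipose tissue in the main fit. Il22ra2, which captures interleukin 22, was above background on no array, and its levels overlapped (0.84 to 3.87 in GK and 0.97 to 2.93 in BN adipose tissue). Il18bp was at 7.81, 7.72, 7.38 and 7.72 in GK, against 7.31, 6.41, 6.79, 6.05 and 6.09 in BN adipose tissue. The groups did not overlap (difference 1.13, adjusted p = 0.0662 by limma). Il1rn, the antagonist of the interleukin 1 receptor, lay between 5.16 and 5.93 in GK and between 4.16 and 5.04 in BN adipose tissue, again without overlap, and was above background on 2 of 4 GK and 0 of 5 BN arrays (adjusted p = 0.091 by limma). Il1r2, the decoy receptor of interleukin 1, showed the opposite order, with 4.82 to 5.51 in GK and 5.75 to 7.37 in BN adipose tissue, and was above background on 0 of 4 GK and 4 of 5 BN arrays (adjusted p = 0.0908 by limma). Cxcr4, the receptor of Cxcl12, was at 7.48, 7.94, 6.94 and 7.49 in GK, against 6.85, 5.89, 6.36, 6.32 and 6.70 in BN adipose tissue. These values did not overlap, and the lowest GK array was just above the highest BN array (difference 1.04, adjusted p = 0.0715 by limma). Cxcr4 and Il18bp passed with neqc and with quantile normalisation, and Il1rn and Il1r2 with neither. With the deposited values, vsn of the tissue alone and a robust variance trend, Cxcr4, Il18bp and Il1rn passed as higher and Il1r2 as lower.

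Ccl19, which guides lymphocytes and dendritic cells through Ccr7, lay between 6.79 and 8.35 in GK and between 5.90 and 6.81 in BN adipose tissue, with overlap (difference 1.13, adjusted p = 0.137 by limma). Ccr7 itself differed by 0.07 (95% interval -0.23 to 0.37). Il3ra, the private chain of the interleukin 3 receptor, lay between 5.20 and 6.01 in GK and between 6.08 and 6.93 in BN adipose tissue, and was above background on 0 of 4 GK and 5 of 5 BN arrays (adjusted p = 0.107 by limma). Ccl19 passed as higher and Il3ra as lower with the deposited values, vsn of the tissue alone, detected probes only and a robust variance trend. Neither passed with neqc or quantile normalisation. By family, the median difference was 0.22 for chemokines and 0.32 for chemokine receptors, against 0.01 for both interleukins and interleukin receptor chains.

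With slide as a random block, 7 of the 102 genes passed in adipose tissue (4 higher, 3 lower). With slide as a fixed block, none did, with adjusted p of 0.0595 for Il1rl1, 0.0658 for Cxcl16, 0.0838 for Il2ra, 0.104 for Cxcl1 and 0.218 for Ccl2, and differences of 3.21 for Il1rl1, -3.64 for Il2ra, 2.17 for Cxcl1 and 1.04 for Ccl2. In 1 fit to all 4 groups, whose spread includes the liver arrays, Cxcl1 (adjusted p = 0.369) and Ccl2 (adjusted p = 0.312) no longer passed by limma.

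In liver, none of the 102 genes passed between GK and BN rats when all 8 arrays were used. Over all probes 0.274% were higher and 0.405% lower (0.679% in either direction), and at an unadjusted p under 0.05 the count was 11 genes, against 12.0% of all probes. No gene passed with neqc, where 77 of all probes were higher and 109 lower. With quantile normalisation 1 did, where 97 of all probes were higher and 135 lower. GK and BN values did not overlap for 2 genes that lay higher and 8 that lay lower in GK, where 4.03% and 5.03% of all probes did so. Without GK liver replicate 2, Il13ra2 was higher and Il33 and Cxcl16 were lower, against 0.522% of all probes higher and 0.688% lower (1.21% in either direction). Higher calls were 43.1% of the called probes there, and 57.7% with neqc. At an unadjusted p under 0.05, 20 genes passed, against 13.0% of all probes. Values of the 2 remaining GK arrays did not overlap the BN arrays for 12 genes that lay higher and 15 that lay lower, where 7.91% and 9.33% of all probes did so.

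Il33 encodes an alarmin of the interleukin 1 family, stored in the nucleus of endothelial, epithelial and other barrier cells and released on damage. Its level was 7.11 and 7.46 in GK liver replicates 1 and 3 and 11.13 in GK liver replicate 2, against 11.84, 12.18, 12.10, 12.03 and 12.09 in BN liver. The BN values were tightly grouped, and both GK arrays with liver markers lay far below them. Without replicate 2 the difference was -4.76 ± 0.23 (SE, log2), or 27.1-fold lower in GK (adjusted p = 0.000321 by limma). With it the difference was -3.48 ± 0.80 (adjusted p = 0.126 by limma). The slide that held GK liver replicate 3 and a BN liver array gave -4.64, and the slide of replicate 2 gave -1.04.

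In adipose tissue Il33, read with the same probe, differed little. It was at 10.48, 10.12, 10.03 and 10.39 in GK, against 10.61, 10.06, 10.53, 10.67 and 10.94 in BN adipose tissue. The groups overlapped, with differences of -0.13, -0.03 and -0.14 within slides. GK liver replicates 1 and 3 came from the rats of GK adipose replicates 2 and 4, where Il33 was at 10.12 and 10.39. A second Il33 probe was above background on 0 arrays, with levels between 3.06 and 3.53 in GK and between 3.74 and 5.06 in BN liver (adjusted p without replicate 2 of 0.253 by limma). Of the receptor for Il33, Il1rl1 was above background on no liver array, and Il1rap, its partner chain, on no array of either tissue.

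RefSeq gives Il33 2 starts, and both promoters are printed since this gene had the largest strain difference among the genes past the threshold in liver. They are from GRCr8, plus strand, at chr1:237115323-237115622 for the upstream and chr1:237134696-237134995 for the downstream start, 5′ to 3′, from 250 bases before to 50 bases after each start, and capitals mark the letters TATAAA on either strand.
Il33 upstream start: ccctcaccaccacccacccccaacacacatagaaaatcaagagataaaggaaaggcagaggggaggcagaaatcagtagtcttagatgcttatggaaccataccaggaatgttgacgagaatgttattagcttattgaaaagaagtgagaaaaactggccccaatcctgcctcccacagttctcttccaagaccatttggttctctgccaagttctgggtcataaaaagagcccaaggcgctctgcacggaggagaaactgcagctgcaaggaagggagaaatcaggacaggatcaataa
Il33 downstream start: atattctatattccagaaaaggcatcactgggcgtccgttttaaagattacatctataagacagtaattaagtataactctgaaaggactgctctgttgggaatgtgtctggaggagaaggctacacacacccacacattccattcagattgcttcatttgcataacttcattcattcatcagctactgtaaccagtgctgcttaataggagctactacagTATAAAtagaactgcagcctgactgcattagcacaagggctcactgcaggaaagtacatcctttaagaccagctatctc
The downstream start has TATAAA at -29 to -24, and no match to TATAAA, to the NF-kB consensus or to TTCNNNGAA was found in the upstream window. TATAAA occurred in 14.2% of all rat promoters of this length and in 16 of 78 chemokine and interleukin genes (20.5%). Which start was used in these tissues was not tested.

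Il13ra2, a decoy receptor that binds interleukin 13 with high affinity, was at 7.57 and 7.19 in GK liver replicates 1 and 3 and 2.86 in replicate 2, against 4.70, 3.41, 4.41, 3.91 and 4.38 in BN liver. Only GK liver replicates 1 and 3 were above background. Without replicate 2 the difference was 3.22 ± 0.37 (SE, log2; adjusted p = 0.0081 by limma), at least 5.0-fold higher in GK on the vsn scale. With neqc it was 0.35 (adjusted p = 0.0155 by limma), below that bound, and within the shared slide it was 2.78 on the vsn scale. With replicate 2 the difference was 1.71 (adjusted p = 0.502 by limma), and the groups overlapped. Without GK liver replicate 1 as well, the adjusted p was 0.101. Its ligand Il13 was above background on no array.

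Cxcl16 had the same direction in liver as in adipose tissue once replicate 2 was left out, with 4.44 and 3.78 in GK liver replicates 1 and 3 and 7.32 in replicate 2, against 6.33, 6.71, 6.81, 6.25 and 5.63 in BN liver. Without replicate 2 it passed (adjusted p = 0.0359 by limma), and with it the groups overlapped (adjusted p = 0.532 by limma). Neither those 2 GK arrays nor any BN liver array was above background, so no size of the difference is given, and 6 of 7 fits that left out a further array lost the call (adjusted p from 0.0793 to 0.134). Replicate 2, the single array scored above background, had a signal of 445.7.

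Cxcl13, which attracts B cells through Cxcr5, was at 4.53 and 4.20 in GK liver replicates 1 and 3 and 9.57 in replicate 2, against 6.05, 6.70, 7.29, 7.49 and 8.03 in BN liver. The 2 GK arrays were below background and below every BN array. The difference without replicate 2 was -2.75 ± 0.50 (SE, log2), at least 4.53-fold lower in GK, and narrowly missed the threshold (adjusted p = 0.0513 by limma). With replicate 2 it was -1.02 (adjusted p = 0.728 by limma), with overlap. Without replicate 2, Cxcl13 passed with the deposited values, vsn of the tissue alone, detected probes only, a robust variance trend and 1 fit to all groups. It did not pass with neqc or quantile normalisation. In adipose tissue its order was the other one, between 11.07 and 11.79 in GK and between 10.27 and 11.35 in BN rats, with overlap (difference 0.69, adjusted p = 0.228 by limma). Cxcr5 was above background on no array.

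**Figure D2:**
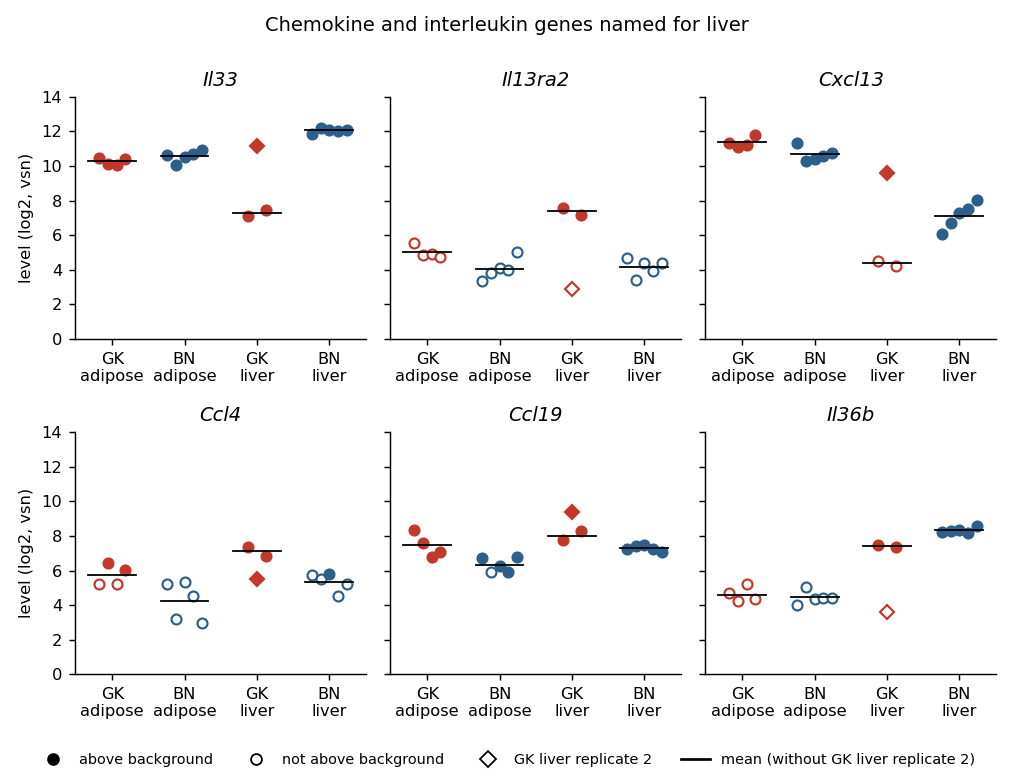
Levels (log2, vsn) of 6 genes named for liver on each array, laid out with GK and BN adipose tissue left of GK and BN liver; filled points were above background, open points were not, the diamond is GK liver replicate 2, and lines are group means without it. Il33 lay at 7.11 and 7.46 in GK liver replicates 1 and 3 and between 11.84 and 12.18 in BN liver, and the diamond falls away from the other GK liver arrays for each gene shown.

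Ccl4, a chemokine made by macrophages and T cells, was at 7.38 and 6.82 in GK liver replicates 1 and 3 and 5.51 in replicate 2, against 5.73, 5.49, 5.81, 4.54 and 5.21 in BN liver. Both GK arrays lay above the BN arrays once replicate 2 was left out (difference 1.74, adjusted p = 0.0927; with replicate 2 1.22, adjusted p = 0.364, by limma). Without replicate 2, Ccl4 passed with the deposited values, vsn of the tissue alone, detected probes only and a robust variance trend. With neqc and quantile normalisation it did not. Ccl2 was at 5.64 and 5.72 in replicates 1 and 3 and 7.79 in replicate 2, against 4.09 to 5.02 in BN liver, where it was above background on 0 of 5 arrays. It did not pass without replicate 2 (adjusted p = 0.241 by limma) or with it (adjusted p = 0.251). Il36b, an interleukin 1 family cytokine, was at 7.46 and 7.37 in replicates 1 and 3 and 3.58 in replicate 2, against 8.17 to 8.59 in BN liver (difference without replicate 2 of -0.91, adjusted p = 0.129; with it -2.19, adjusted p = 0.342, by limma). Ccl19 was at 7.75 and 8.26 in replicates 1 and 3 and 9.38 in replicate 2, against 7.09 to 7.45 in BN liver (difference without replicate 2 of 0.71, adjusted p = 0.285; with it 1.17, adjusted p = 0.268, by limma). Without replicate 2, Il36b passed with neqc, quantile normalisation, detected probes only and a robust variance trend. Ccl19 passed there with neqc and detected probes only, and Ccl2 with detected probes only.

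A few further genes lay apart between strains in liver, all but Il12b only once replicate 2 was left out. None of them passed in the main fit, and Ccl17 passed when only detected probes were tested. Ccl5 was at 10.17 and 10.68 in GK liver replicates 1 and 3, against 9.25 to 10.08 in BN liver. Ccl17, a ligand of Ccr4, was at 6.45 and 5.91 in those GK arrays, against 5.21 to 5.73 in BN liver. Il17ra, the shared chain of the interleukin 17 receptors, was at 8.62 and 8.01, against 7.53 to 7.90 in BN liver. All 3 were higher in the GK arrays, and replicate 2 lay below both for each of them. Ccl27 was at 6.77 and 6.44 in GK, against 5.87 to 6.20 in BN liver. Ccl21, a ligand of Ccr7, had the opposite order, at 5.72 and 5.88 in GK, against 6.13 to 7.40 in BN liver. Il12b, a subunit of interleukins 12 and 23, was at 5.55, 4.23 and 5.54 in GK liver, against 5.74 to 6.24 in BN liver, with no overlap even with replicate 2 included (difference -0.83, adjusted p = 0.396 by limma).

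Of the 46 genes above background on at least 1 liver array, GK liver replicate 2 lay above all 7 others for 16 (34.8%, against 41.2% of probes detected in liver) and below all of them for 18 (39.1%, against 24.9%). It was more than 1 log2 unit above them for Ccl2, Ccl19, Ccl20, Ccl28, Ccr10, Cxcl10 and Cxcl13, and more than 1 unit below for Ccl6, Cxcl9, Il1a, Il1rn, Il6r, Il7, Il12b and Il36b. Ccl6, for example, was at 6.19 on this array, and between 9.55 and 11.41 on the other liver arrays. The 15 macrophage genes averaged 6.89 on it, against 9.65 and 10.23 in GK liver replicates 1 and 3 and 9.42 to 10.16 in BN liver.

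The difference of the strain effect between tissues was tested in a single fit of the 17 arrays that treats arrays of a rat as correlated. It passed for Il1rl1 (-3.68, adjusted p = 9.84e-05 by limma) and Il2ra (2.68, adjusted p = 0.0238 by limma), against 0.495% of all probes lower and 0.549% higher (1.04% in either direction). Higher calls were 52.6% of the called probes, and 40.2% with neqc. Without GK liver replicate 2 the count was 2 higher and 3 lower, against 0.936% and 0.922% of all probes (1.86% in either direction). The added genes were Il33 (-4.46, adjusted p = 1.49e-06), Cxcl13 (-3.44, adjusted p = 0.00291) and Il13ra2 (2.26, adjusted p = 0.0322), all by limma. Neither Il1rl1 nor Il2ra was above background on a liver array of either strain, so these sizes rest on levels below background. With neqc the interaction was -0.33 for Il1rl1 (adjusted p = 6.8e-07) and 1.28 for Il2ra, which no longer passed (adjusted p = 0.0966), by limma. Cxcl16 did not pass (adjusted p = 0.0769, and 0.0643 without replicate 2, by limma).

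**Figure D3:**
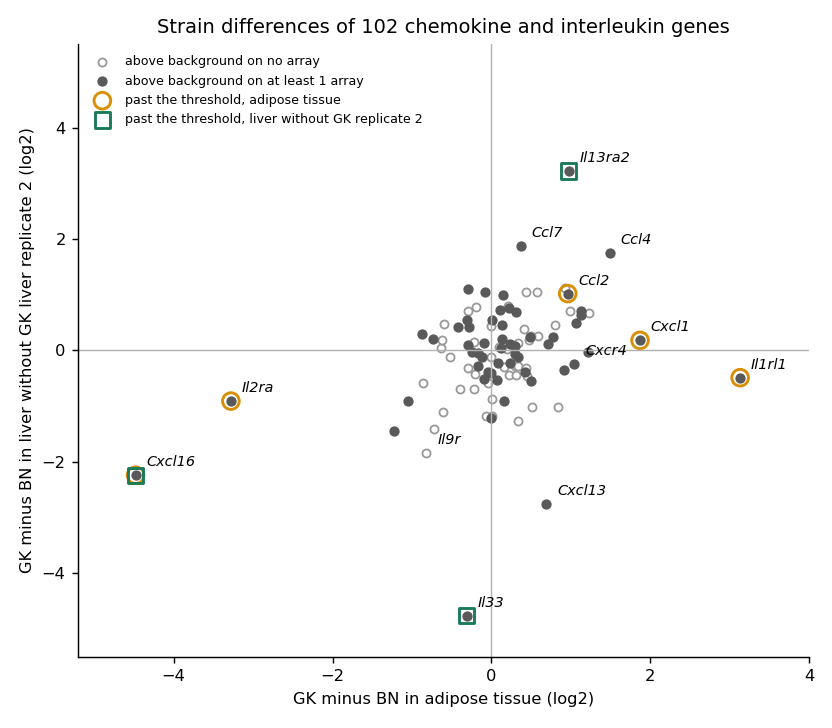
The difference GK minus BN of each of the 102 genes (log2) in adipose tissue on the x axis, against that in liver without GK liver replicate 2 on the y axis; each point is a gene. Il1rl1 lies at 3.13 and Il2ra at -3.28 on the adipose axis with less change on the liver axis, Il33 lies at -4.76 on the liver axis, and Cxcl16, which is low on both axes, was above background in neither group of either tissue drawn here.

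The larger contrast was between tissues. No slide held arrays of both tissues, so tissue and slide cannot be told apart in it. In BN rats, paired by rat, 18 genes were higher in liver than in adipose tissue and 18 lower, where 20.8% of all probes were higher and 18.0% lower (38.8% in either direction). The share was thus near that of the array as a whole. Each of the 36 genes moved the same way in all 5 BN rats, which their selection by a test paired in those rats favours. In both GK rats left without replicate 2, which did not enter that test, 33 moved the same way. The same counts were not made over all probes. Higher calls were 53.7% of the called probes, and 41.4% with neqc and 40.8% with quantile normalisation. By family, 4 chemokines were higher and 6 lower, 0 chemokine receptors were higher and 2 lower, 7 interleukins were higher and 2 lower, and 6 interleukin receptor chains were higher and 8 lower. Of the 36 genes 6 (Ccl3, Il1r1, Il1rapl1, Il1rl1, Il27ra and Il7r) were above background on no BN array.

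In GK rats 8 genes were higher in liver and 23 lower, against 18.1% and 16.8% of all probes (34.9% in either direction). Without replicate 2, 16 were higher and 25 lower, against 19.3% and 19.2% (38.5% in either direction). Higher calls were 51.9% of the called probes with all arrays, and 40.0% with neqc. The GK list without replicate 2 and the BN list shared 30 genes, which were 73.2% of the GK list and 83.3% of the BN list. The matching share over all probes was not counted, so this overlap cannot be read as particular to these genes. All of the shared genes had the same direction except Il33. In BN rats Il33 was higher in liver in each rat, by 1.15 to 2.12 (mean 1.49, adjusted p = 0.00099 by limma). In GK rats it was lower in liver by 3.01 and 2.93 log2 units (GK liver minus adipose -3.01 and -2.93), and the rat of GK liver replicate 2 gave 1.10.

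**Figure D4:**
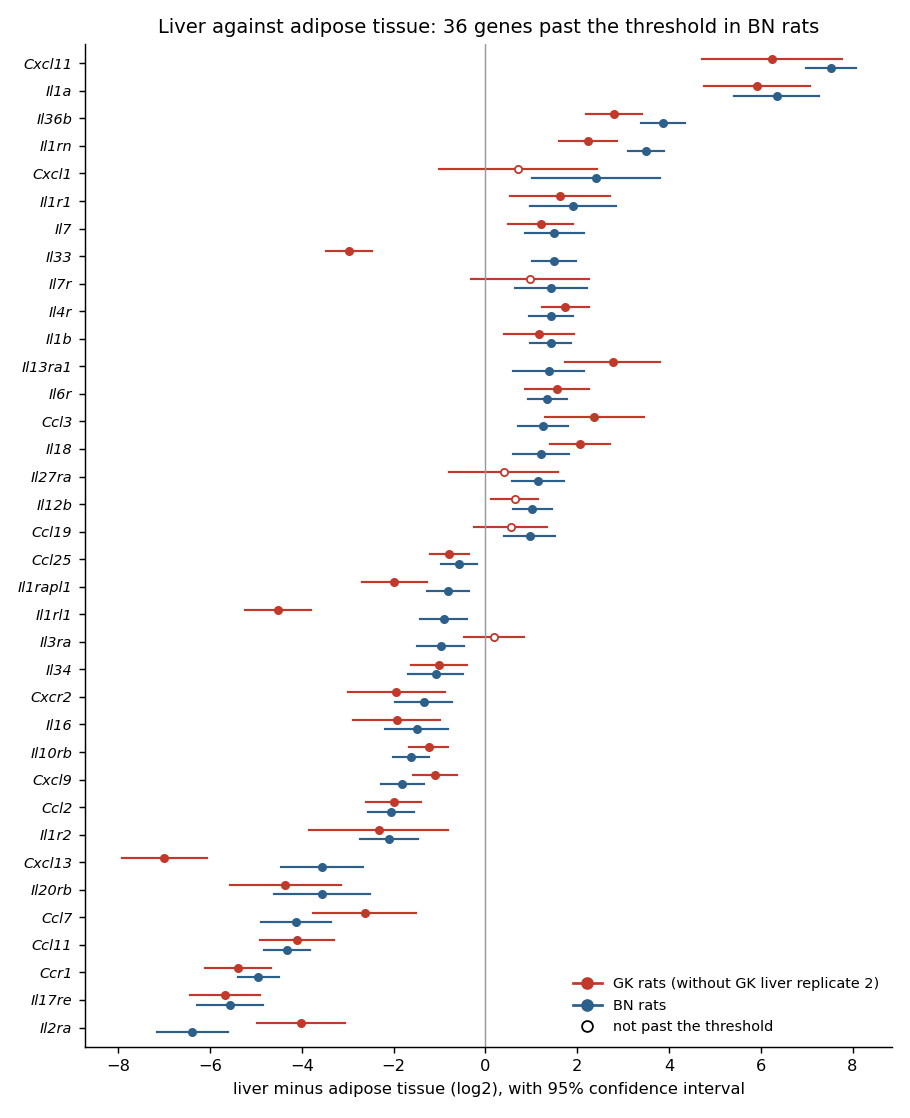
Liver minus adipose tissue (log2) with its 95% interval for the 36 genes past the threshold in BN rats, with GK rats without GK liver replicate 2 above BN rats in each row; open points did not pass. Cxcl11 lies at 6.24 in GK and 7.53 in BN rats, and Il33 lies at -2.97 in GK and 1.49 in BN rats, on opposite sides of 0.

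Several cytokines of the interleukin 1 family were higher in liver. Il1a was at 8.20 to 8.67 in BN liver and 1.34 to 3.61 in BN adipose tissue, at least 8.72-fold higher in liver (adjusted p = 2.21e-05 by limma). The tissues were far apart in every rat. Il36b was at 8.17 to 8.59 in BN liver and 4.03 to 5.03 in BN adipose tissue (at least 7.94-fold, adjusted p = 9.39e-06 by limma). Il1rn was at 7.86 to 8.69 in BN liver and 4.16 to 5.04 in BN adipose tissue (at least 7.1-fold, adjusted p = 6.09e-06 by limma). Il1b was at 7.30 to 8.11 in BN liver and 5.48 to 7.09 in BN adipose tissue (difference 1.42, adjusted p = 0.000792 by limma). Il18, a further member matured by caspase-1, was at 7.38 to 8.20 in BN liver and 6.02 to 7.22 in BN adipose tissue (difference 1.22, adjusted p = 0.00804 by limma). On GK liver replicate 2, Il1a was at 2.91, Il36b at 3.58, Il1rn at 3.67 and Il1b at 6.88, below every other liver array, whereas Il18 was at 8.21, within the range of the other GK liver arrays.

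Other receptor chains higher in liver were Il6r, through which hepatocytes receive interleukin 6 (difference 1.35, adjusted p = 0.00082), Il4r, shared by interleukins 4 and 13 (1.42, adjusted p = 0.00118), and Il13ra1 (1.38, adjusted p = 0.0139), by limma. Il6r was at 8.65 to 9.78 in BN liver and 7.27 to 8.20 in BN adipose tissue, with no overlap. Il7, a growth factor of lymphocytes, was at 6.23 to 6.85 in BN liver and 4.24 to 5.40 in BN adipose tissue, at least 2.25-fold higher in liver (adjusted p = 0.00366 by limma).

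On the adipose side, Ccl11 (eotaxin), which recruits eosinophils, was at 3.26 to 4.72 in BN liver and 7.91 to 9.17 in BN adipose tissue, at least 10.2-fold lower in liver (adjusted p = 7.18e-06 by limma). Ccr1, a receptor of monocytes and neutrophils, was at 3.61 to 4.77 in BN liver and 8.90 to 9.46 in BN adipose tissue (at least 16.8-fold lower, adjusted p = 2.34e-06 by limma). Neither was above background on any liver array. Il17re, a chain of the interleukin 17C receptor, was at 3.52 to 4.81 in BN liver and 9.53 to 10.27 in BN adipose tissue (at least 28.9-fold lower, adjusted p = 1.23e-05 by limma). Ccl7, a relative of Ccl2, was at 1.56 to 4.04 in BN liver and 6.45 to 7.31 in BN adipose tissue (at least 3.47-fold lower, adjusted p = 6.8e-05 by limma). Il20rb, a chain of the receptors for interleukins 19, 20 and 24, was at 2.50 to 4.52 in BN liver and 6.36 to 7.8 in BN adipose tissue (at least 4.23-fold lower, adjusted p = 0.000613 by limma). None of Il17re, Ccl7 and Il20rb was above background on a BN liver array. Il10rb, shared by the receptors of interleukins 10 and 22, was bright in both tissues, at 8.55 to 9.09 in BN liver and 10.27 to 10.72 in BN adipose tissue (difference -1.62, adjusted p = 0.000241 by limma). Il2ra was at least 14.8-fold lower in BN liver (adjusted p = 8.74e-06 by limma), and Cxcl13 was 11.8-fold lower in BN liver and at least 85.9-fold lower in GK liver without replicate 2. In GK rats without replicate 2, Ccl11 was at least 10.5-fold, Ccr1 at least 23.0-fold and Il17re at least 28.0-fold lower in liver.

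Cxcl1 varied widely in liver. It was at 11.72, 7.00, 9.28, 8.45 and 9.08 in BN liver, against 6.33 to 7.37 in BN adipose tissue. The tissues overlapped, and the difference per rat ranged between 0.67 and 5.05 (mean 2.41 ± 0.59 SE, adjusted p = 0.0156 by limma). In the GK rats the difference was 0.50 and 0.77, and -2.48 in the rat of GK liver replicate 2.

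Cxcl9, Cxcl10 and Cxcl11 are the chemokines induced by interferon gamma that bind Cxcr3 on T and NK cells, and their genes lie side by side on rat chromosome 14. They are shown together because the same receptor ligands had different tissue patterns. The promoters are RefSeq's for GRCr8, plus strand, 5′ to 3′, from 250 bases before to 50 after the start, at chr14:16006916-16007215 (Cxcl9), chr14:15988816-15989115 (Cxcl10) and chr14:15973478-15973777 (Cxcl11). Capitals mark the NF-kB consensus, TATAAA and the gamma-activated sequence TTCNNNGAA, each sought on both strands.
Cxcl9: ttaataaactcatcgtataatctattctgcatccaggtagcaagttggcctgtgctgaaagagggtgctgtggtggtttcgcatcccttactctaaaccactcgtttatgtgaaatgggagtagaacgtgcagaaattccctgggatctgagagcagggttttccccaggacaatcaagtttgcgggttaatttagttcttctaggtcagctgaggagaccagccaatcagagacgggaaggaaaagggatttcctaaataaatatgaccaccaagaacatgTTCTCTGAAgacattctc
Cxcl10: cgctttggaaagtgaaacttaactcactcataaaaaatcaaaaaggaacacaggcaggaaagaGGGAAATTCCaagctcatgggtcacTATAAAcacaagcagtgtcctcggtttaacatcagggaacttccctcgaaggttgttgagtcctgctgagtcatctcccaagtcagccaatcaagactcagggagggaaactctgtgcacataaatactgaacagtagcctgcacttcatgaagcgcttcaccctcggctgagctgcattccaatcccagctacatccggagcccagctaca
Cxcl11: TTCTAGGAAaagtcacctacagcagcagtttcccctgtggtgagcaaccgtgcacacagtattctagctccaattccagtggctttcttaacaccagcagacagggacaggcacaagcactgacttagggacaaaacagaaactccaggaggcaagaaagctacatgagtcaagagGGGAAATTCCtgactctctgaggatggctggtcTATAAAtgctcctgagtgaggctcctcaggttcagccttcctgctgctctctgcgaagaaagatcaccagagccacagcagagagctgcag
Cxcl9 has TTCTCTGAA at 33 to 41 after the start. Cxcl10 has an NF-kB match at -187 to -178 and TATAAA at -162 to -157. Cxcl11 has TTCTAGGAA at -250 to -242, an NF-kB match at -74 to -65 and TATAAA at -41 to -36. TTCNNNGAA occurred in 8.87% of all rat promoters of this length and in 11 of the 78 chemokine and interleukin genes with an entry (14.1%).

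Cxcl11 was at 10.98, 9.71 and 10.94 in GK liver (replicates 1, 2 and 3) and 10.43, 11.45, 10.98, 10.89 and 11.16 in BN liver, against 3.09, 6.80, 3.64 and 5.17 in GK adipose tissue and 3.51, 4.17, 3.49, 2.67 and 3.42 in BN adipose tissue. All liver arrays were bright, and 1 of the 9 adipose arrays was above background. In BN rats the difference was 7.53 ± 0.23 (SE, log2; adjusted p = 7.94e-07 by limma), at least 50.0-fold, and was 6.92 to 8.22 per rat. In GK rats it was 4.18 and 5.77, and 6.07 in the rat of GK liver replicate 2.

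Cxcl9 showed the other order. It was at 10.60, 8.09 and 11.01 in GK liver and 10.03, 10.55, 10.70, 10.26 and 10.38 in BN liver, against 11.66 to 12.22 in GK and 11.95 to 12.29 in BN adipose tissue. No liver array reached an adipose array. In BN rats the difference was -1.81 ± 0.19 (SE, log2; 3.50-fold lower in liver, adjusted p = 0.000303 by limma), and was -2.27 to -1.40 per rat. In GK rats it was -1.30 and -1.21, and -3.58 in the rat of GK liver replicate 2.

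Cxcl10 was above background on 5 of 17 arrays. It was at 4.54, 7.49 and 6.10 in GK liver and 4.18 to 5.45 in BN liver, against 2.22 to 6.35 in GK and 4.45 to 8.01 in BN adipose tissue. The highest value was that of BN adipose replicate 4, and the groups overlapped throughout. Cxcr3, the receptor, was above background on 2 of 4 GK and 1 of 5 BN adipose arrays and on none in liver.

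**Figure D5:**
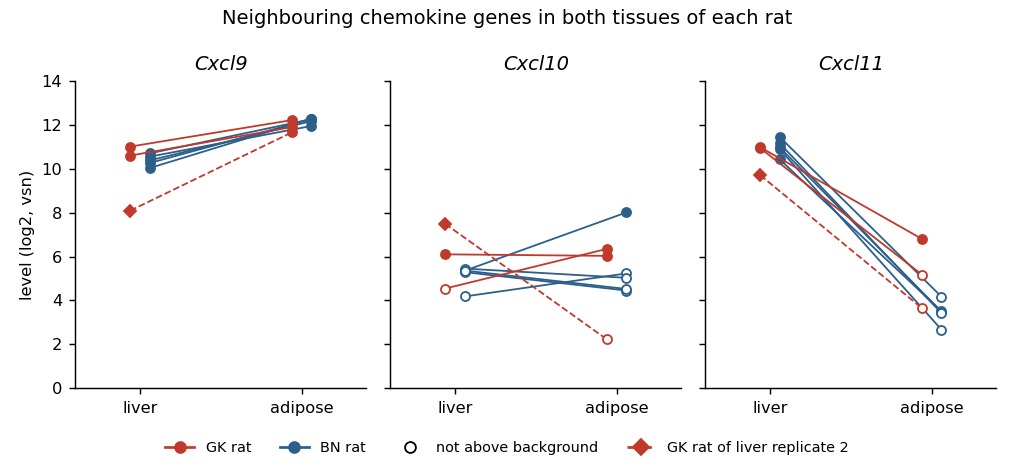
Levels (log2, vsn) of Cxcl9, Cxcl10 and Cxcl11 in liver (left of each pair) and adipose tissue, for GK and BN rats; lines join the 2 tissues of a rat, and the dashed line with a diamond is the rat of GK liver replicate 2. Cxcl11 slopes down to adipose tissue in every rat, by 6.92 to 8.22 in BN rats, Cxcl9 slopes up in every rat, and Cxcl10 has no common slope.

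For some bright genes the strain difference in adipose tissue was small or poorly resolved. Cxcl12, which retains Cxcr4-bearing cells in their niche, averaged 12.38 in GK and 12.15 in BN adipose tissue, and 12.38 in GK and 12.43 in BN liver. Its strain difference was 0.23 in adipose tissue (95% interval -0.36 to 0.83) and 0.12 in liver without replicate 2 (95% interval -0.62 to 0.85), and -0.05 with it. Il15, which sustains NK and memory T cells, differed by -0.17 in adipose tissue (95% interval -0.66 to 0.32). Ccl5 (RANTES) lay between 8.76 and 10.66 in GK and between 8.33 and 9.97 in BN adipose tissue, and its strain difference of 0.31 had a 95% interval of -0.68 to 1.30. These intervals leave room for differences that 4 and 5 arrays could not resolve.

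Genes around the chemokines and interleukins were read from lists of the same pathways. Of 13 measured further chemokine genes and atypical receptors, 1 passed in adipose tissue, Rarres2 (chemerin), at 13.07 to 13.22 in GK and 13.56 to 14.18 in BN rats (difference -0.78, adjusted p = 0.0425 by limma). Of 24 other cytokines and their receptors, 0 passed between strains in either tissue. Of 46 genes that carry the receptors' signal, 0 were higher and 2 lower in GK adipose tissue. Traf6, the ubiquitin ligase downstream of the interleukin 1 receptor family, was at 3.35 to 4.65 in GK and 5.71 to 6.29 in BN adipose tissue, and above background on 0 of 4 GK and 4 of 5 BN arrays (adjusted p = 0.00302 by limma). Rgs2, which shortens G protein signalling, was at 11.44 to 12.16 in GK and 12.43 to 12.89 in BN adipose tissue (difference -0.83, adjusted p = 0.0452 by limma). In liver 0 of the 46 passed with or without replicate 2. Of 19 measured acute phase genes, the hepatocyte targets of interleukin 6 and interleukin 1, 0 passed between strains in either tissue, with a median difference of -0.27 in liver without replicate 2 and -2.06 with it. The list holds Il1rn, which is also among the 102 genes.

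Between tissues in BN rats, where 20.8% of all probes were higher and 18.0% lower in liver, 17 of the 19 acute phase genes were higher and 0 lower. Of the 46 signalling genes 10 were higher and 13 lower, of the 24 other cytokine genes 4 and 7, and of the 13 further chemokine genes 1 and 6. The strain effect differed between tissues for Rgs2 (1.5, adjusted p = 0.0204), Socs2, an inhibitor of cytokine and growth hormone signalling (-2.06, adjusted p = 0.0429), and Ltb, a membrane-bound relative of tumour necrosis factor (-1.95, adjusted p = 0.0266), all by limma over all 17 arrays. Without GK liver replicate 2, Rgs2 (1.29, adjusted p = 0.0244) and Ltb (-1.73, adjusted p = 0.0393) passed by limma.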

How the data were processed

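RNA from adipose tissue and liver of GK and BN rats was hybridised to Illumina RatRef-12 arrays (22226 probes, 17 arrays, 12 slides). Array, rat and group were taken from the labels, which place 5 BN rats where the growth protocol mentions 4. The deposited intensity values were averaged over beads by the authors in BeadStudio without normalisation (median 38 to 43 beads per probe). The deposited detection score runs as a fraction between 0 and 1, and over 0.99 was read as above background. Log2 values that the authors deposited were normalised by the authors with vsn in each tissue apart, and served as an alternative. The deposited control tables give further values, of which the signal mean over negative controls was used.

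That mean was taken off each array's intensities and 1 vsn model (least trimmed squares quantile 0.9, 7 iterations, 5 slices; Python 3.11.15, numpy 2.4.6, scipy 1.17.1, pandas 2.3.3) was fitted to the 17 arrays. Fitted per tissue, its values lay a median of 0.0107 (highest 0.111) from the deposited log2 values. Groups were compared with limma 3.58.1 in R 4.3.3 (statmod 1.5.0 for random blocks), with Benjamini-Hochberg adjustment over all probes and a threshold of 0.05. Strains were compared within each tissue, BN tissues with the rat as a block, and the tissue-by-strain difference and the GK tissues in 1 fit with a random effect of rat (correlation 0.00807, or 0.0349 without GK liver replicate 2). Errors are SE from limma, intervals are 95%, and n is the number of arrays, each from a different rat within a group. Platform symbols were given for 13650 probes (13278 symbols) and none for 8576. Of the 102 genes, 78 matched an entry in RefSeq's GRCr8 promoters. Named genes are those past the threshold between strains or for the tissue-by-strain difference, up to 10 more per tissue without overlap and above background on every array of a strain, up to 8 per direction between BN tissues, the 10 brightest per tissue, and their ligands or receptor chains. Members, lists and rules were chosen with earlier results of these data known. The number of arrays limits the precision. Scripts were tested on simulated data. The alternatives tried were neqc, quantile normalisation, the deposited values, vsn of each tissue alone, detected probes only, a robust variance trend, slide and replicate blocks, 1 fit to all groups, and leaving out arrays.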

Additional observations from a re-analysis of the deposited data

Results flagged for a closer look

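In 82 groups of 4 or 5 arrays tested for an array that stands apart, 3 had one, where chance gives about 1 in 20. Ccl21 was at 6.01 in BN adipose replicate 2, and the other 4 BN adipose arrays lay between 7.26 and 7.65. Ccl27 was at 6.47 in GK adipose replicate 2, and the other GK adipose arrays lay between 6.19 and 6.23. Ccl6 was at 10.62 in the same array, and between 10.35 and 10.37 in the other GK adipose arrays. That array is the one with the highest skeletal muscle markers (10.43), and their part in these values was not tested.

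The strain effect differed between liver and adipose tissue by the limma interaction for Il1rl1 (-3.68) and Il2ra (2.68) with all arrays. Without GK liver replicate 2 it did so for Il33 (-4.46), Il1rl1 (-3.62), Cxcl13 (-3.44), Il2ra (2.36) and Il13ra2 (2.26). A negative value means that GK minus BN was lower in liver than in adipose tissue.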

How the results depend on the processing

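The sign of a difference was not stable for every named gene when GK liver replicate 2 was left out. Ccl6 averaged 9.37 in GK liver with that array and 10.96 without it, against 9.97 in BN liver. The strain difference of Cxcl12 in liver, given above, also changed sign. The balance of calls moved too. Higher calls were 38.9% of called probes in adipose tissue and 55.0% with neqc, 43.1% in liver without GK liver replicate 2 and 57.7% with neqc, and 53.7% between BN tissues and 41.4% with neqc. Among the 102 genes in liver without that array, 1 higher and 2 lower became 5 higher and 3 lower among detected probes only. In adipose tissue, where 5 genes passed, the count was 8 with quantile normalisation, 12 with the deposited values, 11 with vsn of the tissue alone, 9 among detected probes only, 11 with a robust variance trend, 0 with slide as a fixed block, 3 without GK adipose replicates 1 and 2 (chosen after seeing the data), and 3 to 6 over that fit and all fits that left out 1 array. In liver the 0 genes became 1 with quantile normalisation and 3 in 1 fit to all groups, and 0 to 3 when an array was left out, the 3 arising without GK liver replicate 2. Without GK liver replicate 2, where 3 passed, the count was 6 with the deposited values, 5 with vsn of the tissue alone, 8 among detected probes only, 7 with a robust variance trend, 5 in 1 fit to all groups, and 1 to 6 when a further array was left out (1 without GK liver replicate 1, 6 without GK liver replicate 3). Between tissues the count stayed at 27 to 39 in BN and 28 to 42 in GK rats. For the tissue-by-strain difference, where 2 passed, it was 5 without GK liver replicate 2, 4 among detected probes only, and 7 with neqc without GK liver replicate 2 (chosen after seeing the data). Over all probes, 229 higher and 359 lower in adipose tissue became 504 and 469 with quantile normalisation. They became 487 and 613 with the deposited values, and 477 and 598 with vsn of the tissue alone. In liver without GK liver replicate 2, 116 and 153 became 243 and 282 with the deposited values. Most other settings have no such count here, so these shifts cannot be read as particular to the 102 genes. Fewer probes are tested where only detected ones enter, and a fixed slide block leaves few residual degrees of freedom. For the other shifts the cause was not tested.

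Cxcl1 lost its adipose call with slide as a fixed block and in 1 fit to all groups (adjusted p = 0.369 by limma), and Il2ra with neqc (-1.29, adjusted p = 0.0838 by limma), where its tissue-by-strain call was lost too. The Il33 call in liver without GK liver replicate 2 held in all 7 fits that left out a further array (adjusted p from 0.0013 to 0.00405 by limma). GK and BN replicates share only a number, since their labels name different rats. Deviations of same-numbered arrays correlated at -0.0651 to 0.0748 in adipose tissue and 0.0229 to 0.0798 in liver. Liver and adipose arrays of the same BN rat correlated at -0.0322 to 0.0682, so such correlations cannot tell whether arrays are paired. With the replicate number as a replicate block, 4 genes passed in adipose tissue and 0 in liver, with or without GK liver replicate 2. Without the rat as a block (no replicate block), 38 passed between tissues in BN and 30 in GK rats, and 2 for the tissue-by-strain difference. Slide as a block could not be fitted in liver without GK liver replicate 2, and it was not tried between tissues, where no slide held both.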
